A study of Mus musculus with 15 samples.

Results

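Myelin is the lipid-rich sheath that mature oligodendrocytes wrap around axons, and 9 of the genes that build or maintain it in the brain are described here. They were taken by symbol from the deposited gene table (Mbp, Cnp, Mobp, Mag, Cldn11, Mog, Mal, Ugt8a and Aspa), 9 of 18931 genes listed, and all 9 passed the filter on low counts. Brain messenger RNA of Kunming mice, an outbred stock, had been sequenced in 5 groups of 3 libraries, 15 in all. The study concerns middle cerebral artery occlusion (MCAO), a model of ischemic stroke, and its title names jasminoidin, an iridoid glycoside, and ursodeoxycholic acid, a bile acid. The groups are labelled sham, vehicle, JA, UA and JU. The labels do not spell out these abbreviations, and the titles of the sham libraries also name MCAO mice. The sources used here state no brain region, hemisphere, age, sex, dose or time after occlusion. Nor do the labels say whether each library came from its own animal, so the p-values cover the spread among these samples alone, and that spread may be technical.

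Compact myelin holds its membrane layers together with structural proteins. Mbp encodes myelin basic protein, which binds the cytoplasmic faces of the membrane, and Mobp encodes a small basic protein of the same compartment. Cnp encodes an enzyme that keeps cytoplasmic channels in the sheath open, Cldn11 the tight-junction protein of central myelin, and Mag an adhesion protein on the side facing the axon. Mog is a glycoprotein of the outermost layer, and Mal a proteolipid of lipid rafts in membrane transport. Ugt8a makes galactosylceramide, the main myelin glycolipid, and Aspa splits N-acetylaspartate, which supplies acetate for lipid synthesis. Transcription of these genes in maturing oligodendrocytes depends on the factors Sox10 and Myrf.

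The sequences just upstream of the start sites are shown for the 2 genes whose level differed most between sham and vehicle (Mal, Ugt8a), for Mog, and for 4 genes whose libraries overlapped between these groups (Mag, Cnp, Mobp, Cldn11). They are written 5′ to 3′ on the gene's strand from RefSeq starts on GRCm38.p6, and end before the first base of the gene in the GENCODE annotation of GRCm38. Capitals mark matches on either strand to ACAAAG or AACAAT (cores bound by SOX proteins), CTGGCAC or CTGGTAC (forms of the Myrf motif) and CAGCTG (an E-box). No 2 of the marked matches overlap.
Mal, chr2:127656696-127656945, strand minus: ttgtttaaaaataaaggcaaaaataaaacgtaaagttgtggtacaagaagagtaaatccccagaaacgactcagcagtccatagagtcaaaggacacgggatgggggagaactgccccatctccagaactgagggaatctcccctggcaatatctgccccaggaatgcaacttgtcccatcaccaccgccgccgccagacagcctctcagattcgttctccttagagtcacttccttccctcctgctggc
Ugt8a, chr3:125938653-125938902, strand minus: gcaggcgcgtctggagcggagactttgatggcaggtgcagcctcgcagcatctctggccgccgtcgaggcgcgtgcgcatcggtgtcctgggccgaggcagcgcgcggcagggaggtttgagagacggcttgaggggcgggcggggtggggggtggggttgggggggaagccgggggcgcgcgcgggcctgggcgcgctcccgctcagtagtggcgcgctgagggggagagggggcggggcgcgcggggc
Mog, chr17:37023399-37023648, strand minus: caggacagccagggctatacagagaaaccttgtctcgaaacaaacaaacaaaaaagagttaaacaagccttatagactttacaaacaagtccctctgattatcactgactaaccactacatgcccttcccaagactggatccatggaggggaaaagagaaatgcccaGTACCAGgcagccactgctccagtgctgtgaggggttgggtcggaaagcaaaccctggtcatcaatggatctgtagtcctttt
Mag, chr7:30914874-30915113, strand minus: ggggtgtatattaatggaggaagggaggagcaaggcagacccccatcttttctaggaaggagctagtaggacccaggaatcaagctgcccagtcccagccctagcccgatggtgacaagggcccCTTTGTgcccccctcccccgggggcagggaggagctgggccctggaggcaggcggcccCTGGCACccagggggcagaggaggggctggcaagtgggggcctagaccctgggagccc
Cnp, chr11:100574689-100574903, strand plus: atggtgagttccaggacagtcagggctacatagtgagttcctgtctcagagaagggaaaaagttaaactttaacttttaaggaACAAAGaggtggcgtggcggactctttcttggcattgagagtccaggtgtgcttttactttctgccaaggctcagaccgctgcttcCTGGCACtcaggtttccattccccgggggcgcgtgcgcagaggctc
Mobp, chr9:120149492-120149706, strand plus: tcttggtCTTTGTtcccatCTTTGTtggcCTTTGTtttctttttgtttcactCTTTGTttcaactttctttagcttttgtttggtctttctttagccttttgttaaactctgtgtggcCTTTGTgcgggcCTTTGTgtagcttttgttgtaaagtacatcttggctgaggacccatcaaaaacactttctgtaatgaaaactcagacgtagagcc
Cldn11, chr3:31149670-31149919, strand plus: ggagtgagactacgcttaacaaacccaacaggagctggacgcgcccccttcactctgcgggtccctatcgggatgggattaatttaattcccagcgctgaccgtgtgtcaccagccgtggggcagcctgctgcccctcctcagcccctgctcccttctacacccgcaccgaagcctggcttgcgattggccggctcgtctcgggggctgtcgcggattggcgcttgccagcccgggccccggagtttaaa

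Promoter windows were found for 8 of the 9 genes, with 10 starts in all, and Mbp was not among them. Within 250 bases upstream, Mag (at 2 of its 3 starts) and Cnp each held a SOX core and a Myrf motif. Mobp held 6 copies of the SOX core ACAAAG, all in reverse orientation, and Mog held 1 Myrf motif of the form CTGGTAC, 83 bases before its start. The Aspa window (chr11:73324638-73324887, strand minus) held the SOX core AACAAT and the E-box. It lies inside the gene as GENCODE annotates it (chr11:73304992-73329596), as does the window of the remaining Mag start. These windows are therefore not shown above. No match was found in the windows of Mal, Ugt8a and Cldn11, which says only that these letters are not there. Among 32851 RefSeq promoters, 7896 held a SOX core, 1947 (5.93%) a Myrf motif and 4271 the E-box in a window of the same length.

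Total counts ran from 18346180 to 20447465 per library. On the first principal component, which held 66.5% of the variance, JU replicate 1 had the highest value, at 129. The other JU libraries lay at -0.521 and -33.7, and sham at -40.4 to -39.1. Vehicle replicate 2 lay at 84.2, also apart from the other vehicle libraries at 27.1 and 29.7. Results below are given with and without JU replicate 1 where it changes a call. In the vehicle and JU libraries, genes of the lowest GC decile were low relative to their means over all libraries, with a median log2 deviation of -0.190 to -0.104. The same deviation was 0.03 to 0.17 in the 9 sham, JA and UA libraries, so values from a fit corrected for GC content are also given. Markers of other cells moved too. The summed level of 10 genes of reactive microglia and macrophages was 1727 to 1866 CPM (counts scaled to library size with TMM factors) in sham, 10743 to 23681 in vehicle and 46221 in JU replicate 1. It was 2241 and 4893 CPM in JU replicates 2 and 3, 1833 to 8721 CPM in JA and 2317 to 4256 CPM in UA. For 9 striatal neuron markers the sum spanned 1559 to 1899 CPM in sham and 418.5 to 1619 CPM in vehicle. In JU replicates 1, 2 and 3 it was 249.7, 1566 and 775.5 CPM, in JA 913.3 to 1819 CPM and in UA 1225 to 1586 CPM. The part of these cells in the results below was not tested. In bulk tissue, fewer oligodendrocytes and less RNA per oligodendrocyte cannot be told apart.

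Pmp2, a gene of the peripheral myelin that Schwann cells make, was near 0, with at most 4 counts in any library, and passed the floor of 3 counts in 1 library. Of the 7 Schwann cell markers, 5, which brain tissue may also express, passed it in all 15. In FPKM, which allows levels of different genes to be compared, Mbp was the most abundant of the 9 genes in sham at 742 ± 21.95 (SD, n = 3). Cnp followed at 178 ± 6.87, Mal at 124.5 ± 5.83 and Cldn11 at 115 ± 11.1. Mobp at 79.1 ± 7.73 and Mag at 78.65 ± 10.7 overlapped each other, as did Mal and Cldn11. Mog lay at 64.4 ± 2.36, and Ugt8a at 16.3 ± 0.854 and Aspa at 10.3 ± 0.148 were the lowest. In vehicle, Cldn11 at 119 ± 20.8 FPKM stood above Mal at 93.7 ± 12.5, the reverse of their order in sham, although the libraries of the 2 genes overlapped in both groups. JU had the vehicle order in its means, with Cldn11 at 120 ± 39.1 and Mal at 90.2 ± 7.37 FPKM. Cldn11 was 163.9 FPKM in JU replicate 1, but 88.05 in JU replicate 2, where Mal was 88.21. JA and UA had the sham order, with Mal at 114 ± 7.98 and 117.3 ± 17.8 and Cldn11 at 107.6 ± 10.03 and 111.8 ± 19.01 FPKM. The libraries of the 2 genes overlapped in JU, JA and UA as well.

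**Figure D1:**
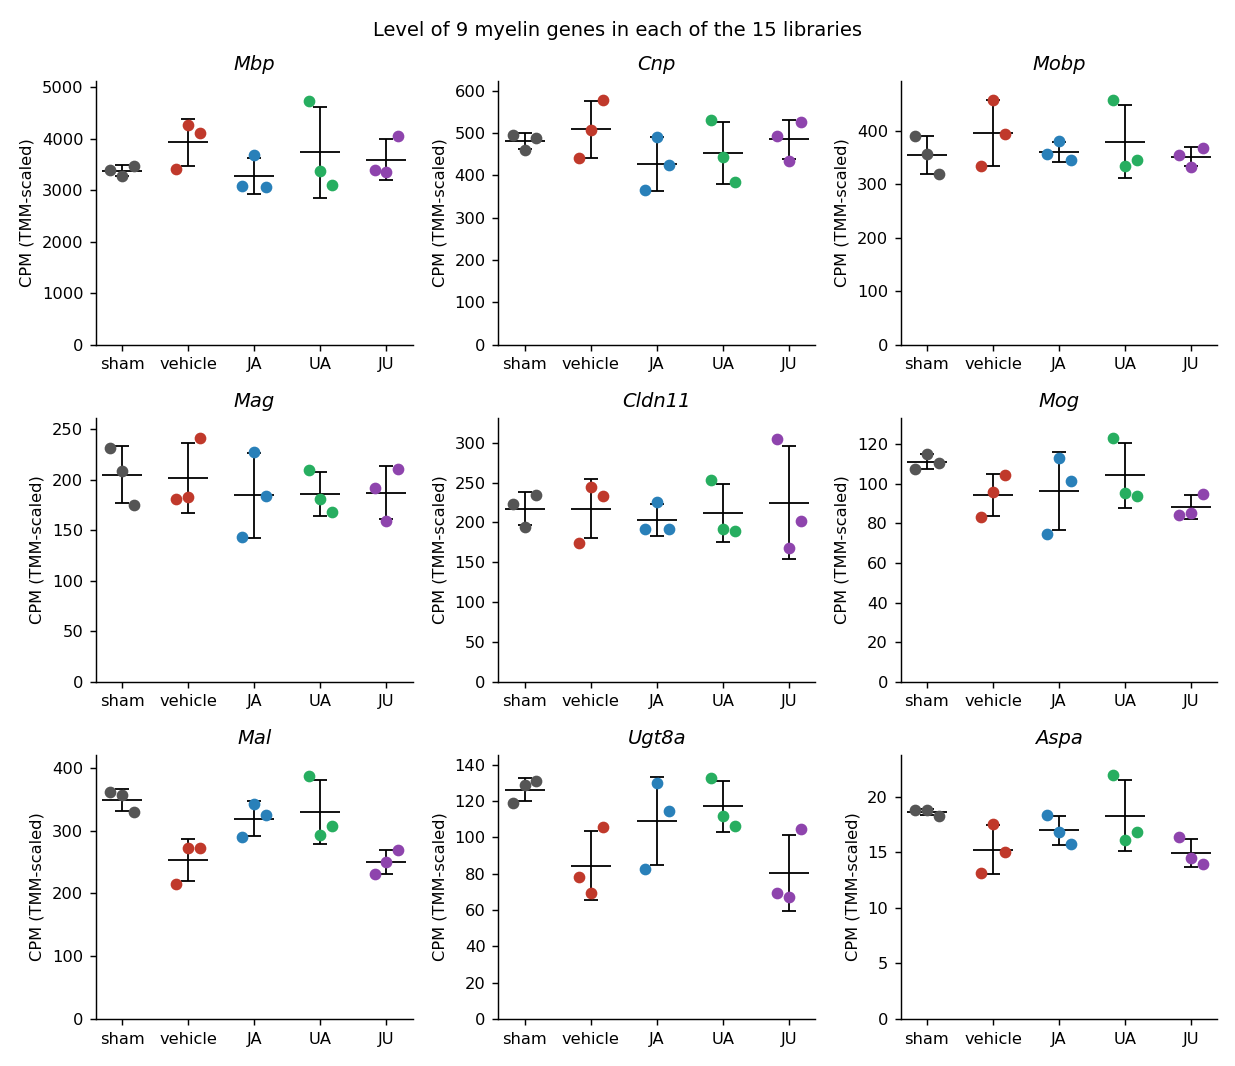
Level of each of the 9 genes in CPM on a linear axis from 0; points are single libraries, and the bar and whiskers are the mean and SD of 3 libraries. Mal lies between 215 and 273 CPM in the vehicle and JU libraries and between 289 and 388 CPM in all others, while Mbp, Cnp, Mobp, Mag and Cldn11 overlap between groups.

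Vehicle against sham compares occlusion with the sham operation. The levels of Mal, Ugt8a, Mog and Aspa lay below sham in every vehicle library, whereas those of Mbp, Cnp, Mobp, Mag and Cldn11 overlapped between the groups. edgeR's quasi-likelihood test with Benjamini-Hochberg adjustment over 15125 genes called 0 of the 9 genes, against 5.02% of all genes tested (4.24% lower, 0.787% higher). At an unadjusted p under 0.05 the fit counted 2 (Ugt8a and Mal), against 29.3% of all genes, and DESeq2 and limma-voom counted 3 each (Ugt8a, Aspa and Mal), against 32.4% of all genes in DESeq2 and 26.96% in limma-voom. After adjustment DESeq2 called 1, Mal, against 16.9% of all genes, and limma-voom 0, against 4.34%. The median log2 fold change of the 9 genes was -0.02, against 0.005 over all genes tested, with 3 genes positive and 6 negative.

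Mal had the smallest p of the 9. Its level was 361, 356 and 330 CPM in the sham libraries and 215, 273 and 273 CPM in the vehicle libraries. All vehicle libraries lay below all sham libraries. The log2 fold change was -0.46 ± 0.13 (SE; 95% interval -0.74 to -0.18; adjusted p = 0.0589, edgeR). Without JU replicate 1, which belongs to neither group but enters the shared estimate of spread, Mal was called at -0.47 ± 0.12 (adjusted p = 0.0101), and over 16 settings its adjusted p ran from 0.00709 to 0.189. Correction for GC content left its size at -0.48 ± 0.13, with an adjusted p of 0.189. With that correction and without JU replicate 1, an alternative chosen after seeing the data, it was called at -0.49 ± 0.12 (adjusted p = 0.0158, edgeR). That fit called 1972 of 15242 genes lower. Mal lies at chr2:127633226-127656695 on GRCm38, minus strand, and its longest transcript has 48.9% GC.

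Ugt8a, the glycolipid synthase, had the largest difference. Its level was 119, 129 and 131 CPM in sham and 78.3, 69.3 and 105.8 CPM in vehicle. The groups did not overlap, but vehicle replicate 3 lay nearer to sham than the other vehicle libraries did. The log2 fold change was -0.58 ± 0.21 (95% interval -1.03 to -0.13; adjusted p = 0.104, edgeR). Without JU replicate 1 it was called at -0.59 ± 0.20 (adjusted p = 0.0436), and the fit then called 2 of the 9 genes (Ugt8a and Mal) lower, against 16.9% of all genes. Ugt8a (chr3:125865271-125938619, minus strand) has 38.0% GC, the lowest of the 9 genes, and after correction for GC content the difference was -0.25 ± 0.21 (adjusted p = 0.447).

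Mog, the outer-surface glycoprotein, measured 107.6, 115 and 110.3 CPM in sham and 83.3, 95.6 and 104.5 CPM in vehicle. The highest vehicle library came within about 3 CPM of the lowest sham library. Its log2 fold change was -0.23 ± 0.15 (95% interval -0.55 to 0.09; adjusted p = 0.304, edgeR), and -0.29 ± 0.15 with GC correction. Aspa, the aspartoacylase, measured 18.8, 18.8 and 18.3 CPM in sham and 13.2, 17.5 and 15.1 CPM in vehicle. It had a log2 fold change of -0.29 ± 0.14 (95% interval -0.59 to 0.01; adjusted p = 0.178, edgeR). Its GC content is 38.5%, and with GC correction the value was 0.03 ± 0.14, with the sign turned. Counted over the 9 genes, 4 lay lower in every vehicle library than in every sham library (Mog, Ugt8a, Aspa and Mal), against 24.7% of all genes tested, and 0 lay higher, against 24.5%.

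Mbp, the most abundant, measured 3396, 3276 and 3477 CPM in sham and 3410, 4271 and 4108 CPM in vehicle. Vehicle replicate 1 fell within the sham range and the other vehicle libraries above it, for a log2 fold change of 0.22 ± 0.17 (95% interval -0.16 to 0.59; adjusted p = 0.409, edgeR). Mobp had 0.16 ± 0.14 and Cnp 0.08 ± 0.15. Cldn11 had -0.001 ± 0.21 and Mag -0.02 ± 0.18. GC correction gave 0.12 for Mbp, 0.01 for Mobp, -0.08 for Cnp, with the sign turned, -0.09 for Cldn11 and -0.18 for Mag. Exons of Cnp overlap those of Dnajc7 on the opposite strand by up to 154 bases, and exons of Mobp those of Gm38642 by up to 79, so part of their counts could belong to either gene. The libraries of these 5 genes overlapped between the groups, and their intervals allow a log2 change of up to 0.59 up or 0.45 down.

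**Figure D2:**
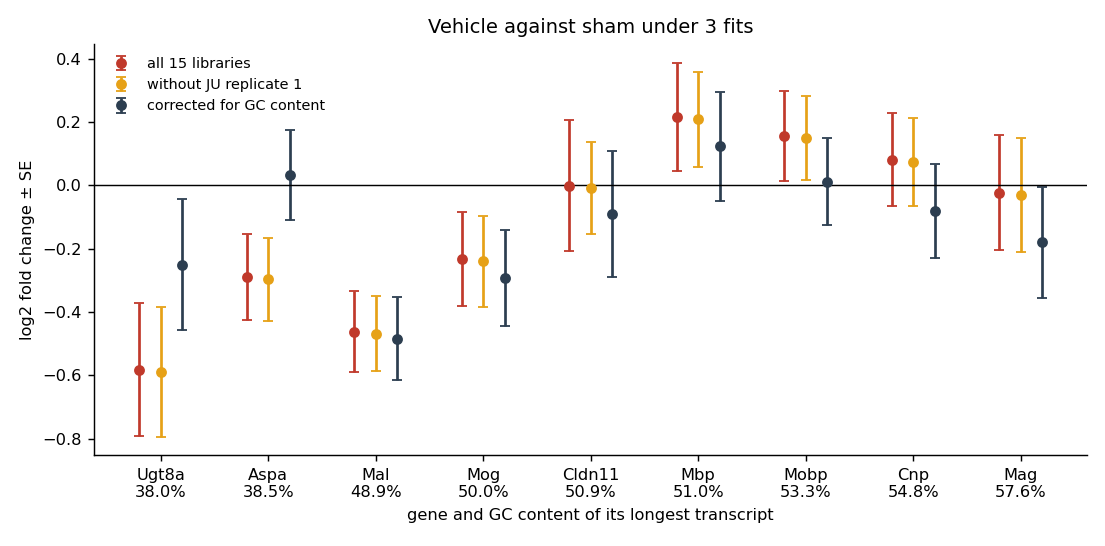
Log2 fold change of each gene between vehicle and sham (y axis, points with SE), with genes ordered by the GC content of their longest transcript. Mal keeps its size under GC correction (-0.46 and -0.48), Ugt8a goes from -0.58 to -0.25, and Aspa from -0.29 to 0.03.

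The ratio of each gene to Mbp within a library does not depend on the library's scaling. Mal per 100 Mbp (ratio of CPM values) was 9.48 to 10.9 in sham and 6.31 to 6.64 in vehicle. It was 9.30 to 10.6 in JA, 8.18 to 9.95 in UA and 6.65 to 7.47 in JU. Thus the 6 vehicle and JU libraries lay below the other 9, with a gap between 7.47 and 8.18. Ugt8a per 100 Mbp showed the same division, at 1.62 to 2.58 in vehicle and 2.01 to 2.59 in JU, against 3.51 to 3.94 in sham, 2.67 to 3.73 in JA and 2.81 to 3.44 in UA. Across the 15124 other genes tested, 0.436% had a ratio to Mbp that divided the libraries this way. This division was chosen after the values were seen and is a description only. It is also the division that the GC trend makes. With GC correction, the log2 fold change between vehicle and sham was -0.48 for Mal, -0.25 for Ugt8a and 0.12 for Mbp. Between sham and vehicle alone, the ratio to Mbp was lower in every vehicle library for 5 of the 8 genes (Mog, Cldn11, Ugt8a, Aspa and Mal), against 33.0% of all genes. Mobp per 100 Mbp, by contrast, was 9.18 to 11.48 in sham and 9.61 to 10.7 in vehicle, and the groups overlapped.

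**Figure D3:**
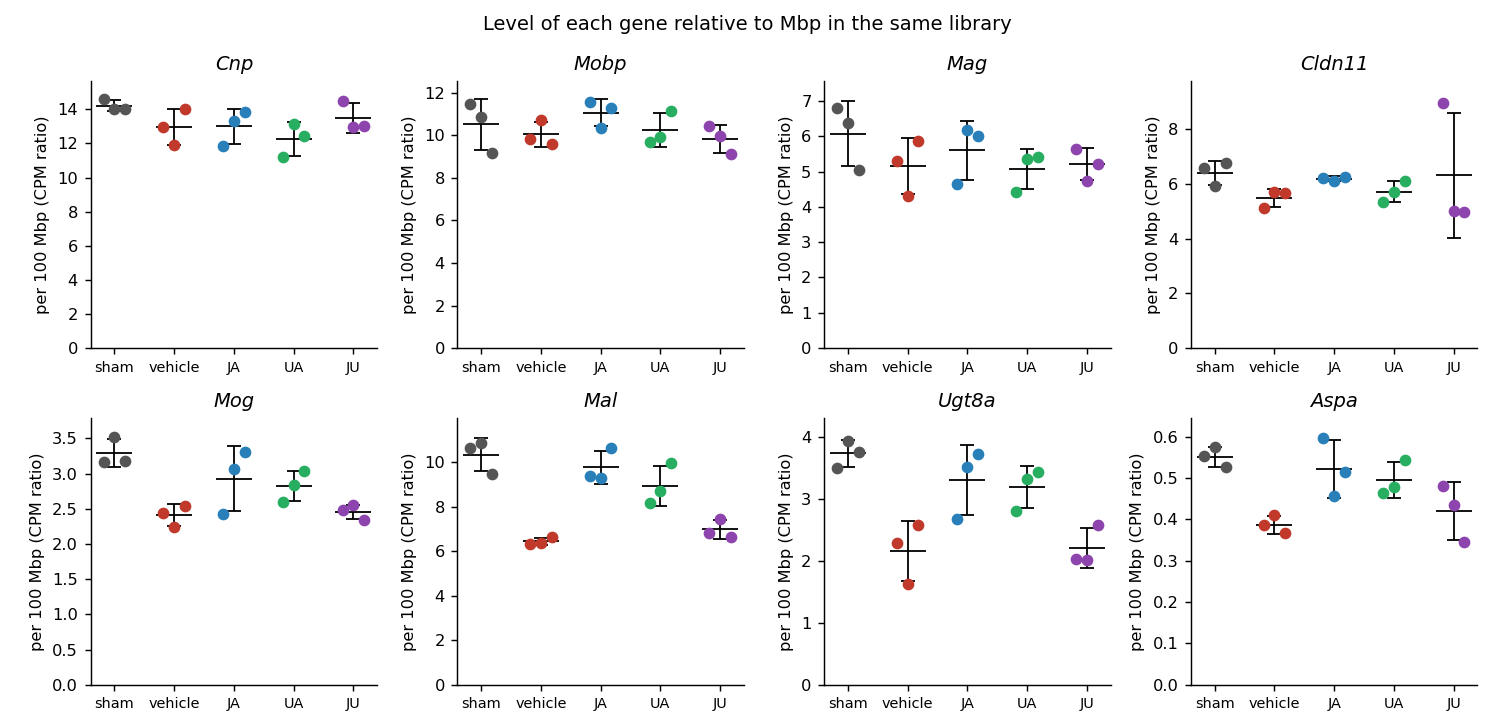
Level of 8 genes per 100 Mbp in the same library (ratio of CPM values, linear axis from 0); points are libraries, bars and whiskers mean and SD of 3. Mal is at 6.31 to 7.47 in the vehicle and JU libraries and at 8.18 to 10.9 in the others, while Cnp and Mobp overlap between sham and vehicle.

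The 9 genes varied together in different ways within and between groups. Over the 15 libraries, the Pearson correlation of log2 CPM was 0.84 for Ugt8a with Mal, 0.82 for Mog with Ugt8a and 0.79 for both Mog and Aspa with Mal. It was 0.81 for Mbp with Cnp and for Mag with Cnp, and 0.80 for Mbp with Mobp. Mbp with Mal gave 0.12. After each group's mean was subtracted, Mbp with Mal gave 0.85 over the 15 libraries pooled. In vehicle, JA, UA and JU the library highest in Mbp was also the highest in Mal. In sham the library highest in Mbp (replicate 3, 3477 CPM) was the lowest in Mal (329.7 CPM). With the group means subtracted, Mbp with Ugt8a went from 0.10 to 0.57, while Ugt8a with Aspa went from 0.46 to -0.18. These correlations describe libraries that share their depth and tissue make-up. UA replicate 1 was the highest library for 5 of the 9 genes, with a summed level of 6858 CPM, and JA replicate 1 had the lowest sum at 4600 CPM.

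JA against vehicle and UA against vehicle compare each treatment with vehicle, and both use the same vehicle libraries. In JA, Mal measured 289, 343 and 326 CPM, above all vehicle libraries. The log2 fold change was 0.33 ± 0.13 (95% interval 0.05 to 0.61; adjusted p = 0.206, edgeR). Ugt8a measured 82.4, 130 and 114 CPM in JA, with replicate 1 within the vehicle range, for a log2 fold change of 0.37 ± 0.21 (95% interval -0.09 to 0.82; adjusted p = 0.338, edgeR). With GC correction the JA values were 0.36 ± 0.13 for Mal and 0.08 ± 0.21 for Ugt8a. edgeR called 0 of the 9 genes against 1.56% of all genes, and limma-voom and DESeq2 also called 0, against 1.28% and 8.30%. At an unadjusted p under 0.05, 1 gene (Mal) was counted by each tool, against 18.8% of all genes in edgeR, 22.3% in DESeq2 and 18.5% in limma-voom. Mal was the 1 gene of 9 higher in every JA library than in every vehicle library, against 17.6% of all genes. Mbp had -0.26 ± 0.17 and Cnp -0.25 ± 0.15, and the other 5 genes lay between -0.13 and 0.16 on the log2 scale. GC correction gave -0.18 for Mbp and -0.11 for Cnp, and left the other 5 between -0.13 and 0.08, with Aspa at -0.13 and Mag at 0.01 turned in sign.

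In UA, Mal measured 388, 293 and 308 CPM and lay above all vehicle libraries. The log2 fold change was 0.38 ± 0.13 (95% interval 0.10 to 0.66; adjusted p = 0.124, edgeR). Without JU replicate 1 Mal was called at 0.39 ± 0.12 (adjusted p = 0.0295), 1 of 9 genes against 14.8% of all genes called higher, and DESeq2 called it over all 15 libraries (adjusted p = 0.0375). With GC correction the difference was 0.40 ± 0.13 (adjusted p = 0.374). With that correction and without JU replicate 1, Mal was called (adjusted p = 0.0451, edgeR), in a fit that called 1041 of 15242 genes higher. UA replicate 1 was the highest, and without it the fold change was 0.25 ± 0.13 (adjusted p = 0.334). Ugt8a measured 133, 112 and 106.5 CPM in UA, also above all vehicle libraries, for 0.47 ± 0.21 (95% interval 0.02 to 0.93; adjusted p = 0.194, edgeR) and 0.15 ± 0.21 with GC correction. edgeR called 0 of 9 genes against 3.47% of all genes tested. It counted 2 at an unadjusted p under 0.05 (Ugt8a and Mal), against 24.3% of all genes. DESeq2 called 1 of 9 after adjustment, against 11.7% of all genes, and limma-voom 0, against 3.28%. Ugt8a and Mal were the 2 of 9 genes higher in every UA library than in every vehicle library, against 21.7% of all genes. Aspa had 0.26 ± 0.14, and -0.06 ± 0.14 with GC correction, with the sign turned. Mog had 0.14 ± 0.15, and 0.19 ± 0.15 with GC correction. Mbp, Mobp, Mag, Cnp and Cldn11 lay between -0.17 and -0.04, and GC correction put them between -0.004 and 0.08.

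**Figure D4:**
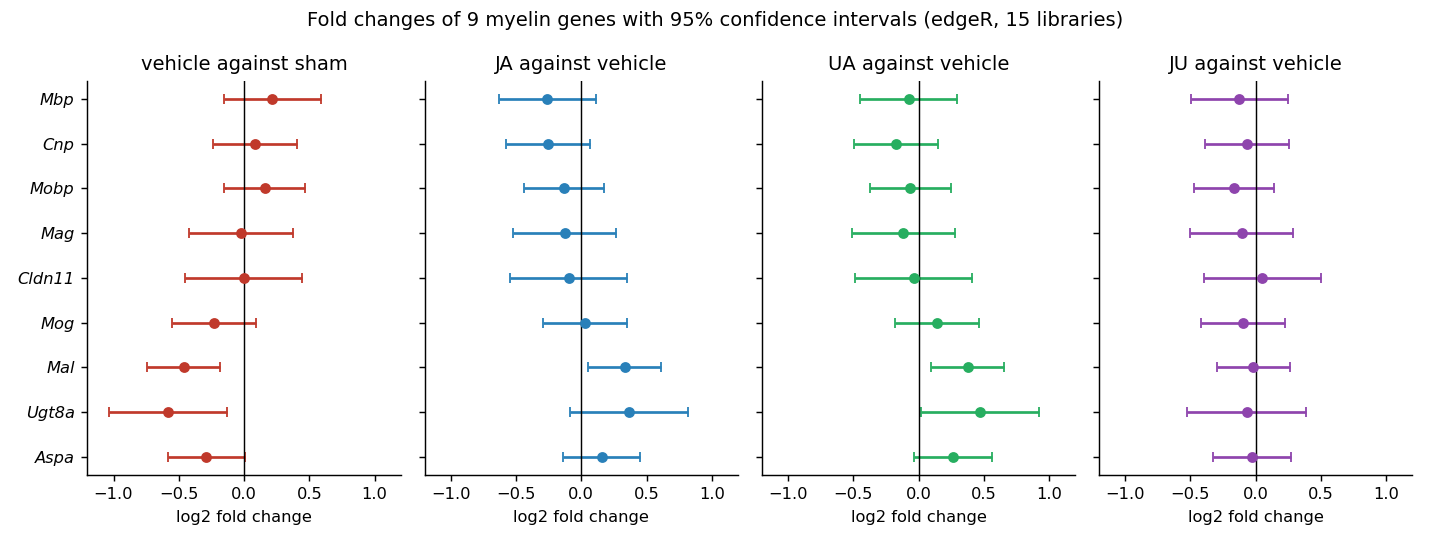
Log2 fold change with its 95% interval for the 9 genes in 4 comparisons; the vertical line is 0, and the treated groups share the vehicle libraries. The intervals of Mal lie below 0 for vehicle against sham and above 0 for JA and UA against vehicle, and the interval for JU against vehicle spans -0.30 to 0.26.

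In JU, Mal measured 232, 250 and 269 CPM, within the range of the vehicle libraries. Ugt8a measured 69.2, 67.3 and 105 CPM, and Mog 84.2, 85.3 and 94.9 CPM. Against vehicle, the log2 fold change was -0.02 ± 0.13 for Mal (95% interval -0.30 to 0.26), -0.07 ± 0.21 for Ugt8a (-0.52 to 0.38) and -0.10 ± 0.15 for Mog (-0.42 to 0.22). edgeR called 0 of 9 genes, against 0.00% of all genes tested, and 0 of the 9 had an unadjusted p under 0.05 in edgeR, DESeq2 or limma-voom, against 1.98%, 2.60% and 1.90% of all genes. GC correction gave -0.02 for Mal, -0.09 for Ugt8a and -0.09 for Mog. The intervals do not show that JU and vehicle were alike. Cldn11 was high in JU replicate 1, at 304.5 CPM, against 168 and 201 CPM in the other JU libraries. Its difference from vehicle was 0.05 ± 0.21 with that library and -0.23 ± 0.16 without it.

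JU was also compared with each of the other treatments, at doses not given in the sources used here. Against JA, Mal was lower in every JU library, for a log2 fold change of -0.35 ± 0.13 (95% interval -0.63 to -0.07; adjusted p = 0.205, edgeR). That made 1 of 9 genes, against 10.6% of all genes, and 0 genes were called, against 0.00% of all genes. Against UA, Mal at -0.40 ± 0.13 (95% interval -0.68 to -0.12; adjusted p = 0.117) and Ugt8a at -0.54 ± 0.21 (95% interval -0.997 to -0.09; adjusted p = 0.143) were lower in every JU library. These were 2 of 9 genes, against 13.9% of all genes. With GC correction Mal had -0.37 ± 0.13 against JA and -0.41 ± 0.13 against UA, and Ugt8a -0.23 ± 0.21 against UA. edgeR called 0 of 9, against 1.08% of all genes, and DESeq2 called Mal (adjusted p = 0.0363), 1 of 9 against 11.7% of all genes. At an unadjusted p under 0.05, edgeR counted 1 gene against JA (Mal), where 20.3% of all genes were counted, and 2 against UA (Ugt8a and Mal), where 27.3% were. With the replicate number as a block it counted 2 against JA (Ugt8a and Mal), where 17.1% of all genes were counted. Mal was the 1 gene of 9 for which all 6 vehicle and JU libraries lay below all 9 sham, JA and UA libraries, a division shared by 936 genes or 6.19% of those tested.

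Other genes of the oligodendrocyte lineage were taken from 6 lists. Among 33 other mature oligodendrocyte and myelin genes, 1 rose and 0 fell between sham and vehicle. Of all genes, 0.787% were called higher and 4.24% lower. The median log2 fold change of the 33 was 0.01. The gene that rose was Cdk18, a cyclin-dependent kinase, which went from 42.8 ± 2.58 CPM to 52.4 ± 0.309 CPM (SD, n = 3; log2 fold change 0.29 ± 0.06, adjusted p = 0.0193, edgeR). It was lower in both JA (-0.34 ± 0.06, adjusted p = 0.0245) and UA (-0.32 ± 0.06, adjusted p = 0.0198) than in vehicle, 2 comparisons that share the vehicle libraries. With GC correction all 3 calls were lost, at 0.13 ± 0.06 (adjusted p = 0.245) between vehicle and sham, -0.20 ± 0.06 (adjusted p = 0.414) in JA and -0.14 ± 0.06 (adjusted p = 0.374) in UA against vehicle. That fit called 1 of 15125 genes between vehicle and sham and 0 in JA and in UA against vehicle, so hardly any call could be kept in it. With JU replicate 1 left out as well, it called 4085 genes between vehicle and sham, and Cdk18 was not called in any of the 3 comparisons. The first call was also lost without sham replicate 2 or 3 or any 1 vehicle library, and the others without any 1 library of the groups compared. Those fits called 0 to 316 of all genes between vehicle and sham, 0 to 23 in JA and 0 to 220 in UA against vehicle. The JA call was lost as well with the replicate block, with the 2 groups alone and with limma on log2(FPKM + 0.1). Each of these called 0 of all genes in that comparison. When JU replicate 1 was left out, 7 of the 33 rose and 4 fell, 11 in all, against 33.9% of all genes in either direction. The 4 that fell were Ermn, Omg, Tppp and Tspan2. Sox10 and Myrf, the factors named above, were among the 7 that rose. With GC correction as well, 5 of the 33 rose and 0 fell, against 2113 of 15242 genes called higher. Sirt2, a deacetylase of the sheath, was also among those that rose without JU replicate 1. It had 0.60 ± 0.17 (adjusted p = 0.0575) over all 15 libraries, where the cytoskeletal gene Ermn had -0.38 ± 0.12 (adjusted p = 0.0743) and the tetraspanin Tspan2 -0.42 ± 0.13 (adjusted p = 0.0774).

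Of 15 genes of committed and newly formed oligodendrocytes, 2 rose and 0 fell, against 0.787% of all genes called higher and 4.24% lower. The median was 0.30. Rnf122, a ubiquitin ligase gene, had 0.59 ± 0.15 (adjusted p = 0.0387) and Sema4d, a semaphorin, 0.66 ± 0.17 (adjusted p = 0.0465). Gpr17, the receptor that marks newly committed cells, had 0.48 ± 0.17 (adjusted p = 0.0956), and Itpr2, a calcium channel of the endoplasmic reticulum, had 0.58 ± 0.21 (adjusted p = 0.108). Both calls were lost with GC correction, at 0.53 ± 0.14 for Rnf122 (adjusted p = 0.189) and 0.52 ± 0.16 for Sema4d (adjusted p = 0.198), with the replicate block, with limma on log2(FPKM + 0.1), and without any 1 sham or vehicle library. The fit with GC correction called 0 of all genes higher, so no call of a rise could be kept in it. Its median for this list was 0.14. Leaving out JU replicate 1, 7 of the 15 rose, against 16.99% of all genes called higher in that fit, and 0 fell. With GC correction as well, 6 rose, Rnf122 and Sema4d among them, against 2113 of 15242 genes called higher. Of 16 precursor genes, 0 rose and 0 fell, and the median was 0.18. Cspg4, the NG2 proteoglycan, which pericytes also express, had 1.51 ± 0.50 (adjusted p = 0.0880). In the fit without JU replicate 1, 4 precursor genes rose and 1, Ptprz1, fell, against 16.99% of all genes called higher and 16.9% lower.

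The list with the largest median was that of disease-associated oligodendrocytes, at 1.23 over 14 genes, although 0 of them passed the threshold in the fit over 15 libraries. C4b, a complement component, had 3.24 ± 0.92 (adjusted p = 0.0609), Apoe 2.05 ± 0.70 (adjusted p = 0.0930), the protease gene Klk6 1.85 ± 0.64 (adjusted p = 0.0941) and the tetraspanin Cd9 1.80 ± 0.60 (adjusted p = 0.0885). In the fit without JU replicate 1, 7 of the 14 rose and 0 fell, against 16.99% of all genes called higher and 16.9% lower. Apoe and Cd63 also stand in the list of reactive microglia and macrophages, of whose 10 genes all 10 rose without JU replicate 1, and the part of those cells in this list was not tested. Of 15 myelin lipid synthesis enzymes other than Ugt8a, 0 rose and 0 fell, with a median of -0.17. The sterol enzymes Sqle (-1.06 ± 0.37, adjusted p = 0.0958) and Fdft1 (-0.91 ± 0.35, adjusted p = 0.117) had the smallest p in it. Both fell without JU replicate 1, and the fatty acid elongase Elovl1 rose. Neurons and astrocytes also make sterols. Of 12 partners of myelin at the node and paranode, 1 fell, against 4.24% of all genes called lower. This was the juxtaparanodal potassium channel Kcna1, at -0.46 ± 0.11 (adjusted p = 0.0333, edgeR). It was higher in JA than in vehicle, at 0.48 ± 0.11 (adjusted p = 0.0494). With GC correction the sizes were -0.52 ± 0.11 (adjusted p = 0.157) and 0.54 ± 0.11 (adjusted p = 0.391), and neither passed. That fit called 1 of 15125 genes between vehicle and sham and 0 in JA against vehicle. With JU replicate 1 left out as well, an alternative chosen after seeing the data, both passed (adjusted p = 0.00622 and 0.0326, edgeR). Of 15242 genes, 1972 were then called lower between vehicle and sham, and 214 higher in JA against vehicle. Both calls over the 15 libraries were also lost with the replicate block and without any 1 library of the groups compared. Of 16 other settings, 8 gave the call between vehicle and sham and 3 the JA call. Without JU replicate 1, 3 of the 12 fell between sham and vehicle (Cntn1, Kcna1 and Kcna2), against 16.9% of all genes called lower. Neuron markers moved in the same libraries, with a summed level over 10 genes of 8446 to 8646 CPM in sham and 4773 to 6896 CPM in vehicle, and their part in the Kcna1 value was not tested.

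**Figure D5:**
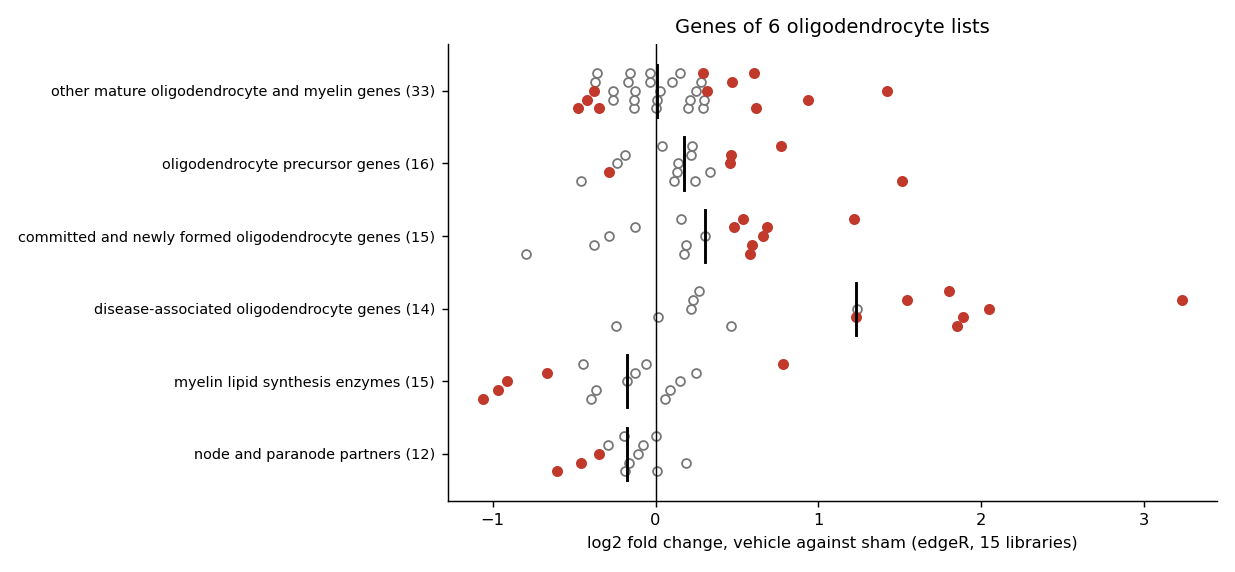
Log2 fold change between vehicle and sham (x axis) of the measured genes of 6 lists, with the number of genes in brackets; each point is a gene, black lines are medians, and filled points passed the threshold without JU replicate 1. The median is 1.23 for the disease-associated list and 0.01 for the other mature genes.

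The genes whose pattern was most like that of the 9 were ranked by the Pearson correlation of their log2 CPM with the mean log2 CPM of the 9 over 15 libraries. Among 13760 genes, Elovl7, also a fatty acid elongase, came first at 0.92, and S1pr5, a sphingosine-1-phosphate receptor, had 0.87. Cab39l (0.84), Tspan2 (0.84), Enpp2 (0.80), Nipal4 (0.79), Lpar1 (0.78), Ppil6 (0.77) and Ipp (0.77) were also among the first 10. Of the first 10, 5 belong to the list of other mature oligodendrocyte and myelin genes, and 8 stayed among the first 10 when JU replicate 1 was left out.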

How the data were processed

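Per the file headers, the deposited table lists for each gene and library an integer read count without normalization, together with FPKM values (fragments scaled to transcript length and depth) from the authors. Trimmomatic, HISAT2, Cufflinks and DESeq, and the builds GRCm38 and mm10, appear in the submitters' processing notes with no versions. How reads were counted, the strand setting included, and which annotation was used is not given in the sources used here. The labels' protocols give a stranded mRNA kit. Of the per-sample columns, 1 matched no sample's labels and was not used.

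Counts were tested in R 4.3.3 with edgeR 4.0.16 (quasi-likelihood, robust, TMM factors of 0.975 to 1.03, filterByExpr by group) in 1 fit over all 15 libraries with 10 residual degrees of freedom. Adjustment was within each contrast over 15125 genes at a threshold of 0.05. The biological coefficient of variation was 27.1%. A count of 3, the floor of detection, was 0.147 to 0.164 CPM and covers counting error only. The procedure was tested on simulated data. Alternatives were DESeq2 1.42.0, limma-voom (limma 3.58.1), limma on log2(FPKM + 0.1), RLE size factors, no filter on low counts, the 2 groups alone, a replicate block, GC correction and left-out libraries. GENCODE matched 18523 genes and gave GC content for 99.2% of those tested. RefSeq gave the promoters.

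Replicate libraries differed beyond sampling noise in each group. The labels do not tie replicate numbers across groups. Deviations of same-numbered libraries correlated above 0.1 in every pair for JU with JA alone (0.701, 0.387 and 0.422). JU replicate 2 correlated more with another JA library (0.587), and the codes in the titles differ from the replicate numbers. A replicate block was fitted as an alternative. The fold changes of JU against JA given above come from the fit without pairing. The blocked fit called 0 of the 9 genes there, as did the unblocked one. Named genes are the 9 members, up to 4 genes per list with the smallest p between vehicle and sham, and the 10 genes most alike. Some genes that this rule selects are not reported here. Further genes named as risen or fallen without JU replicate 1 were chosen after their values were seen. The members and lists were chosen with earlier results of these data known.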

Additional observations from a re-analysis of the deposited data

How the results depend on the processing

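The number of the 9 genes called was 0 in each of 6 comparisons with all 15 libraries in edgeR. Between vehicle and sham it was 1 with DESeq2 (Mal), 2 with the 2 groups alone (Ugt8a, Mal), 1 with GC correction and JU replicate 1 left out (Mal), and 0 to 2 when single libraries were left out, with 2 reached without JU replicate 1. Between UA and vehicle it was 1 with DESeq2, 1 with GC correction and JU replicate 1 left out, and 0 to 1 over left-out libraries, and between JU and UA it was 1 with DESeq2, each time Mal. The median of the 9 genes between vehicle and sham ran from -0.18 without vehicle replicate 3 to 0.042 without vehicle replicate 1. Of 459 single-gene values under other settings, 422 kept their sign and their side of the threshold, 7 passed it and 30 changed sign. Of 351 with a library left out, 301 kept both, 3 passed it and 47 changed sign. Mal and Ugt8a kept their sign against sham and in JA and UA against vehicle under every setting. With 1 library left out, counts over all genes between vehicle and sham ranged from 0 (without sham replicate 3) to 5172 (without JU replicate 1), from 760, and with GC correction 1 gene was called. DESeq2 called 2488 of 14701 and the 2 groups alone 3763 of 14753. GC correction with JU replicate 1 left out called 4085 of 15242. Why these counts differ was not tested. GC correction and the removal of JU replicate 1 together were chosen after seeing the data.

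Values that changed sign are log2 fold changes. GC correction gave Cnp -0.081 and Aspa 0.033 between vehicle and sham, Mag 0.0084 and Aspa -0.13 in JA against vehicle, and Mbp 0.012, Mag 0.057, Mobp 0.081, Cldn11 0.043 and Aspa -0.058 in UA against vehicle. It gave Mag -0.11 and Aspa 0.076 in JU against JA, and Mag -0.15, Cnp -0.057 and Aspa 0.0076 in JU against UA. With JU replicate 1 also left out it gave Cnp -0.088 and Aspa 0.024, then Mag 0.013 and Aspa -0.12, then Mbp 0.019, Mag 0.065, Mobp 0.088, Cnp 0.0036, Cldn11 0.050 and Aspa -0.051 in the first 3 of these comparisons. On log2(FPKM + 0.1), Mag was 0.025 and Cldn11 0.040 between vehicle and sham, Mog -0.037 in JA and Cldn11 -0.018 in JU against vehicle. With the 2 groups alone, Mag was -0.0037 in JU against UA. With the replicate block, Cldn11 was 0.011 between vehicle and sham, Mal there had an adjusted p of 0.0891, and 0 of the 9 genes were called in any comparison, as without the block. The block took the calls over all genes from 760 to 383 between vehicle and sham, from 236 to 0 in JA and from 525 to 191 in UA against vehicle, and from 164 to 0 in JU against UA.

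Leaving out single libraries, the ranges that crossed 0 between vehicle and sham were -0.18 to 0.062 for Mag, -0.10 to 0.12 for Cldn11 and -0.028 to 0.16 for Cnp. In JA against vehicle they were -0.097 to 0.19 for Mog and -0.30 to 0.032 for Mag. In UA against vehicle they were -0.21 to 0.064 for Mobp, -0.18 to 0.063 for Cldn11, -0.20 to 0.041 for Mag and -0.27 to 0.055 for Mbp. In JU against vehicle they were -0.23 to 0.21 for Cldn11, -0.12 to 0.087 for Aspa, -0.12 to 0.042 for Mal, -0.20 to 0.046 for Mag, -0.16 to 0.035 for Cnp and -0.31 to 0.13 for Ugt8a. In JU against JA they were -0.14 to 0.19 for Mag, -0.28 to 0.0012 for Mog, -0.076 to 0.0026 for Mobp and -0.13 to 0.30 for Cldn11. In JU against UA they were -0.18 to 0.15 for Mbp, -0.20 to 0.046 for Mobp, -0.093 to 0.10 for Mag, -0.011 to 0.22 for Cnp and -0.20 to 0.23 for Cldn11. SEs were 0.13 to 0.21 with 3 libraries a group. Differences several times the SE were not called by edgeR over all 15 libraries, such as -0.46 for Mal between vehicle and sham. A gene not called is not shown to be unchanged.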
